A study of Mus musculus with 24 samples.

Results

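Lhx2, Nfatc1, Foxc1, Tbx1 and Foxp1 encode transcription factors of the hair follicle bulge, the niche of the hair follicle stem cell, and the accessible chromatin around these 5 genes is described here. Peaks of 8 deposited lists were merged into 63188 regions, and each region was given to its nearest protein-coding gene within 50 kb. The 5 genes received 67 regions, of 52791 regions given to any gene. Foxp1 had 29 of them, Nfatc1 19, Lhx2 10, Foxc1 5 and Tbx1 4. No region of these genes was equally near to another gene.

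Bulge stem cells spend most of the hair cycle at rest and divide when a new hair begins to grow. Lhx2, a LIM homeodomain factor, maintains stem cell identity and the organisation of the bulge. Nfatc1, a factor that acts when calcium signalling through calcineurin brings it into the nucleus, and the forkhead factors Foxc1 and Foxp1 keep bulge cells at rest, and Tbx1, a T-box factor, supports their self-renewal. After wounding, such cells can leave the follicle and take part in repair of the epidermis. An accessible region near a gene is DNA open to the transposase of the ATAC-seq assay, and it does not measure transcription of that gene.

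The lists came from 24 samples of cells sorted from mouse skin (strain CD1 x C57BL/6J cross), with 1 list for each of 8 groups. Krt19-CreER/R26-YFP mice gave unwounded hair follicle stem cells at day 0 (4 samples, called follicle here). The same genotype gave progeny of these stem cells after a partial-thickness wound, with 3 samples for day 3, 2 for day 7 and 3 for day 80 (the partial-wound lists). Sox9-CreER/R26-YFP mice gave progeny of epidermal stem cells after a full-thickness wound, with 3 samples for day 7 and 2 for day 80 (the full-wound lists). Krt19-CreER/R26-YFP mice also gave epidermal stem cells of unwounded skin, 4 samples for day 0 and 3 for day 80 (the D0 and D80 epidermis lists). All groups carried an inducible Cre and a YFP reporter. Krt19 and Sox9 are both active in the bulge, and neither the time of Cre induction nor the sorting gates are given in the sources used here. Ages were not given either. The questions were which regions of the 5 genes set follicle apart from epidermal cells, which of them the wound progeny held, and which were present at day 80.

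With 1 list per group neither a replicate error nor a test between groups can be given, and each result is the presence or absence of a region. The lists held between 29365 peaks (follicle) and 37214 (full-thickness wound at day 7), and sequencing depth is unknown. The weakest deposited peak had a −log10 p between 7.86 and 40.19, so that lists differ in how weak a region they can hold. The day 0 epidermal list was placed by its deposited name, although its peak names carry a tag for day 7, a day without an unwounded group in the labels. Of 4 follicle marker genes (Krt15, Cd34, Lgr5 and Sox9), 4 had more regions in the follicle list than in the D0 epidermis list, but so had 4 of 4 epidermal markers (Krt5, Krt14, Trp63 and Itga6). Krt5 had no region in the D0 epidermis list. Markers of other cells summed to 7 regions in the follicle list and 2 in the D0 epidermis list for fibroblasts, 7 and 5 for endothelium, 0 and 1 for immune cells, 14 and 8 for melanocytes and 4 and 3 for the dermal papilla. Lum, Kdr, Cd74, Csf1r, Tyr and Alx4 had no region in any list. The part of other cells in the results was not tested.

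Start sites of 4 of the 5 genes differed between lists, and their sequences are given first. RefSeq windows on GRCm38.p6, the assembly of mm10, from 250 bp before to 50 bp after a transcription start, were found for Lhx2, Foxc1, Tbx1 and Foxp1, with 8 windows in all, and none was found for Nfatc1. The windows printed are those with the clearest difference between lists, 1 for each gene, written 5′ to 3′ on the strand of the gene. They lie at chr2:38351058-38351357 (plus strand, inside Lhx2), chr13:31806396-31806695 (plus strand, Foxc1), chr16:18588850-18589149 (minus strand, inside Tbx1) and chr6:99028249-99028548 (minus strand, inside Foxp1). Capitals mark matches on either strand to the letters GGAAA (the core bound by NFAT factors), TAATTA (LIM homeodomain), TGTTTA (forkhead) and GGTGTGA (T-box).
Lhx2: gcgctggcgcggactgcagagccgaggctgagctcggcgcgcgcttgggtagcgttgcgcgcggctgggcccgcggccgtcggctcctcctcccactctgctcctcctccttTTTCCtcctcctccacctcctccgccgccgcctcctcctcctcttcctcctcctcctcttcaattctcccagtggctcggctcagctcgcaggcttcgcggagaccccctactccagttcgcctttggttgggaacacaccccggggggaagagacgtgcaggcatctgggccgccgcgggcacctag
Foxc1: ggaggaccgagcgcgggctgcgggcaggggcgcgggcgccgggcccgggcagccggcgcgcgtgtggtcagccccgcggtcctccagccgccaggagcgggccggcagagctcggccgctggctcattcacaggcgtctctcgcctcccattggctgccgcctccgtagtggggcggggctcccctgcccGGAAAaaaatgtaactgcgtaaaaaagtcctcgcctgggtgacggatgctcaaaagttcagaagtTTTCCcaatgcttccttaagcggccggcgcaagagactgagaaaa
Tbx1: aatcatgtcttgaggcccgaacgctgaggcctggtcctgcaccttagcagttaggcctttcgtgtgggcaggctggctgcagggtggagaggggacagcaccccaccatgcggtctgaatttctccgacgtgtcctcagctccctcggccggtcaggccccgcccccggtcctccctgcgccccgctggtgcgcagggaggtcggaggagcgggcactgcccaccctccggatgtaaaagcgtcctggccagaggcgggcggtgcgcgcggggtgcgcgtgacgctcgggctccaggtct
Foxp1: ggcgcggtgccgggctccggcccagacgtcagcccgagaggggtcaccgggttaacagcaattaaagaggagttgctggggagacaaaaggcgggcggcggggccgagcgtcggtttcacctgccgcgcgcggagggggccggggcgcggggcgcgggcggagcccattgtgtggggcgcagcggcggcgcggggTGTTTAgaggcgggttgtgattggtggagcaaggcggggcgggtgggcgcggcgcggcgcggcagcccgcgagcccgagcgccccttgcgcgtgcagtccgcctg
The Lhx2 window held GGAAA 1 time, the Foxc1 window 2 times, and the Foxp1 window TGTTTA 1 time. No matches overlapped. The Tbx1 window held none of the 4 words. Of 32851 RefSeq start windows, 61.3% held GGAAA, 5.29% TAATTA, 13.4% TGTTTA and 3.98% GGTGTGA, so these matches are common and describe the letters alone. All 4 windows were rich in G and C, with 69.3% in Lhx2, 67.3% in Foxc1, 69% in Tbx1 and 75.3% in Foxp1, beside a median of 52.7% over all windows. They held 29, 32, 26 and 44 CG dinucleotides, beside a median of 7.

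The Tbx1 window was covered by a peak of the follicle list and by no other list. This peak (chromosome 16, 18587927 to 18589598) had a fold enrichment of 4.80 over its local background, as its authors computed it, and stood at percentile 36.0 of its list by −log10 p. Its summit lay 164 bp downstream of the start. Its −log10 p was 31.3. The weakest peaks of the partial-wound lists of days 3 and 7 had 39.70 and 40.19, and that of the full-wound list of day 7 had 32.24. The weakest peaks had lower values in the partial-wound list of day 80 (21.04) and the full-wound list of day 80 (7.98). The same held for the D0 and D80 epidermis lists (13.52 and 7.86). The part of these thresholds in the absence of the region was not tested. With peaks in the upper 50% of each list alone, or with a common lowest −log10 p of 40.19, no list held this region. Of 32815 different start windows, 208 (0.634%) were covered in the follicle list alone. The other Tbx1 start, at the outer end of the gene, was covered in no list.

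At Foxc1 a single region spanned the start of this gene (chromosome 13, 31805632 to 31808892). It was in the follicle list, in the partial-wound lists of days 3 and 7, in the full-wound list of day 7 and in the D0 epidermis list. None of the 3 lists of day 80 held it. The authors' fold enrichment was 7.17 in the follicle list, 4.93 and 6.73 in the partial-wound lists of days 3 and 7, 6.42 in the full-wound list of day 7 and 4.97 in the D0 epidermis list. The summit lay 21, 23, 22 and 23 bp upstream of the start in the first 4 of these and 79 bp upstream in the D0 epidermis list. Each fold belongs to its own list, and no change between lists can be read from it. The day 80 full-wound and epidermal lists admitted peaks down to a −log10 p of 7.98 and 7.86, and the Foxc1 start was in neither. Their peaks as a whole also had a low −log10 p, with medians of 18.89 and 18.87 beside 40.36 in the follicle list. Sequencing depth is unknown, and the part of thresholds in this absence was not tested.

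At Lhx2 the covered start was the inner of a pair. The region around it (chromosome 2, 38350227 to 38352439) was in 7 lists and absent from the full-wound list of day 7. Its fold enrichment lay between 4.56 (partial-thickness wound, day 3) and 12.6 (full-thickness wound, day 80), and its summit lay between 230 and 366 bp upstream of the start. The outer Lhx2 start was covered in no list.

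Foxp1, the longest of the 5 genes at 597405 bp, had 3 start windows with 3 patterns. The innermost, printed above, was in both full-wound lists and in both epidermal lists, and was absent from the follicle list and all partial-wound lists. The peaks there were weak ones, at percentiles 14.5 (day 7) and 17.7 (day 80) of the full-wound lists and 3.04 (day 0) and 20.8 (day 80) of the epidermal lists. The middle window was covered at day 3 of the partial-thickness wound alone, by a peak at percentile 1.52. The outermost was covered at day 7 of the full-thickness wound alone, by a peak at percentile 39.0. The D80 epidermis list had a peak in each of these regions that did not overlap the window. Its summits lay 313 bp from the middle start and 2422 bp from the outermost, beside 426 and 1755 bp for the covering peaks. Over all start windows, 25.9% were covered in 8 of 8 lists, 58.6% in none and 15.6% in some lists and not others. Of the 8 windows of the 4 genes, 6 were in some lists and not others, 2 were in none and 0 were in all 8.

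**Figure D1:**
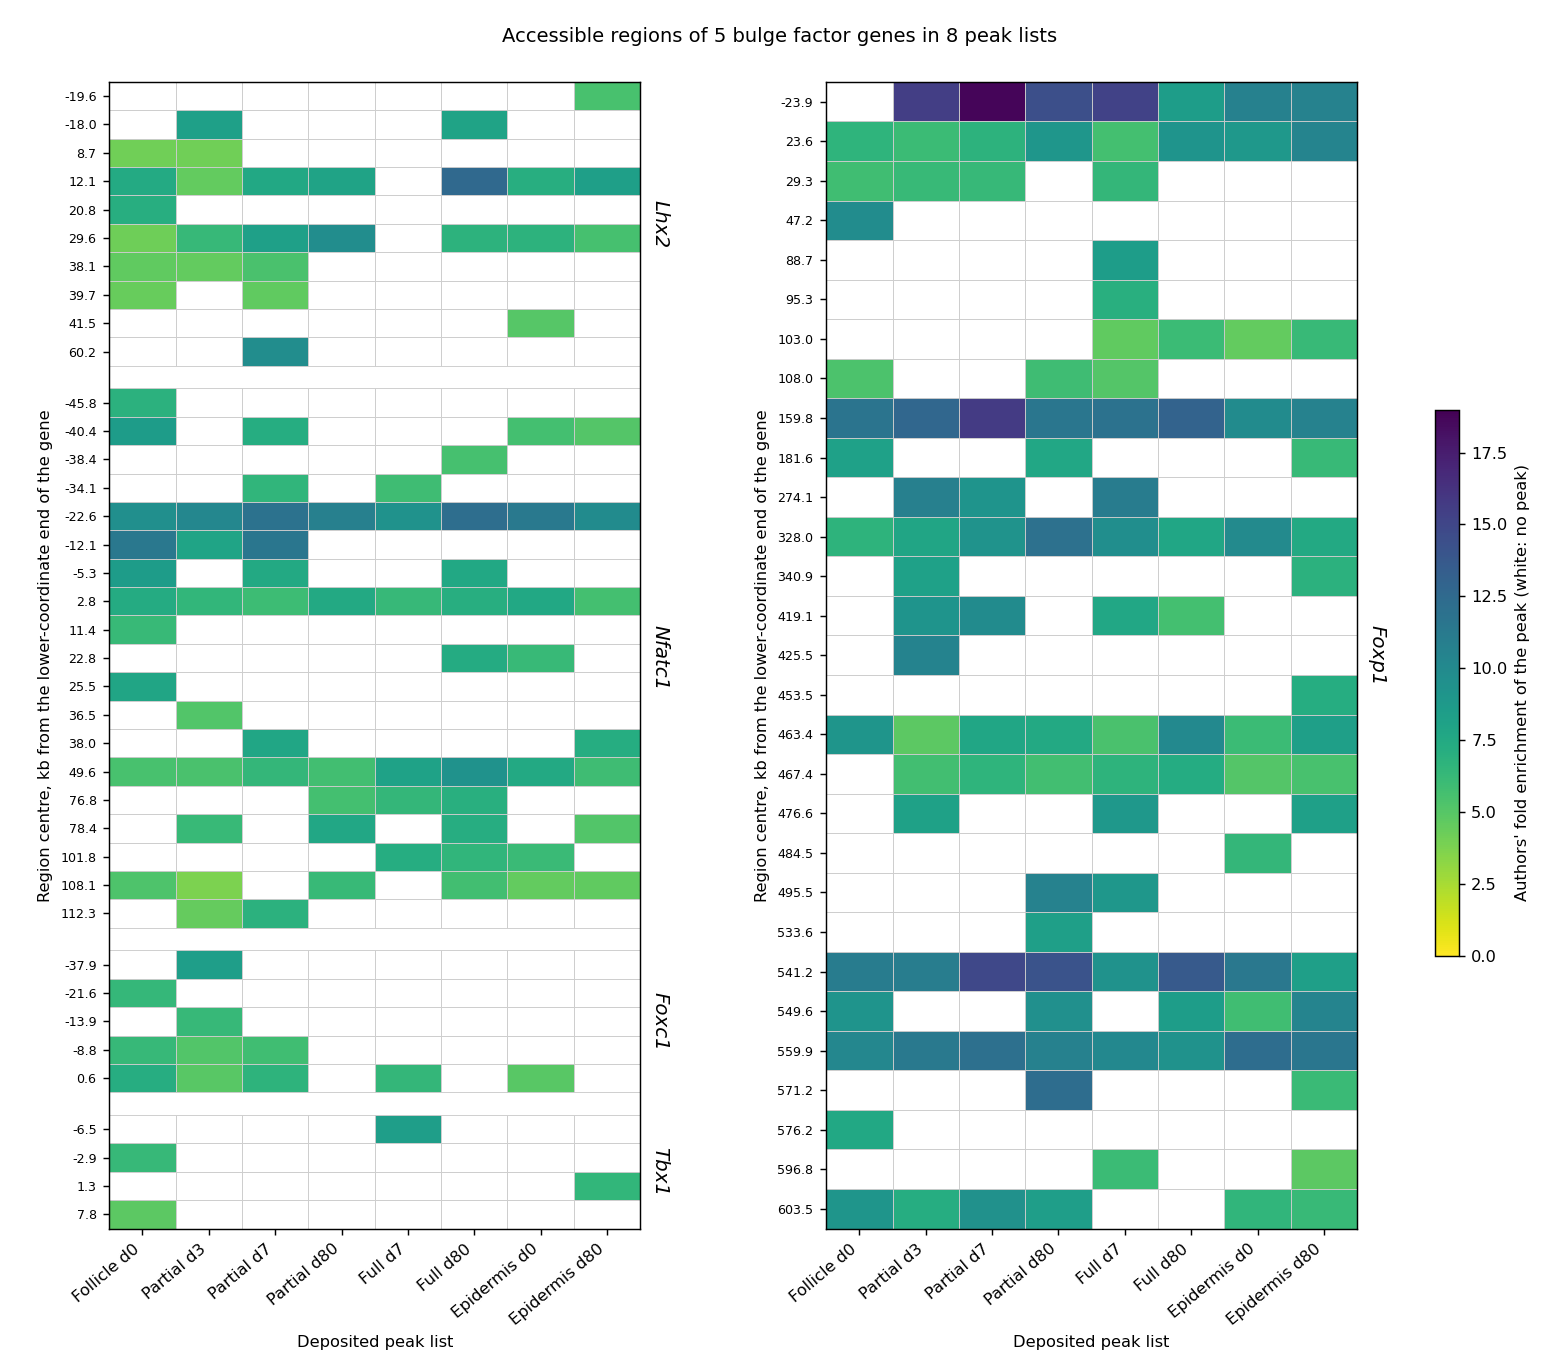
Presence of the 67 regions (rows, by distance of the region centre from the lower-coordinate end of its gene in kb) in the 8 peak lists (columns), coloured by the authors' fold enrichment of the strongest peak, with white for no peak. Nfatc1 has 3 rows filled in all 8 columns and Foxp1 6, and Lhx2, Foxc1 and Tbx1 have none. Folds belong to their own list and are not comparable across columns.

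In unwounded skin, follicle cells had regions that epidermal cells lacked at each of the 5 genes. In total 18 of the 67 regions (26.9%, exact 95% interval 16.8 to 39.1) were in the follicle list and not in the D0 epidermis list, beside 15.8% of all regions given to a gene. In the other direction 7 of 67 (10.4%, 4.30 to 20.3) were in the D0 epidermis list and not in the follicle list, beside 18.2% of all regions. These intervals cover counting error only, and regions of 1 gene are not independent of each other. The follicle regions numbered 5 at Nfatc1, 5 at Foxp1, 4 at Lhx2, 2 at Foxc1 and 2 at Tbx1. The epidermal ones numbered 4 at Foxp1, 2 at Nfatc1 and 1 at Lhx2, with 0 at Foxc1 and Tbx1. Of the 18 follicle regions, 17 were also absent from the D80 epidermis list, the exception being a Foxp1 region (chromosome 6, 99106077 to 99107798). With only peaks in the upper 50% of each list by score, 12 regions were in the follicle list and not the D0 epidermis list, beside 8.83% of all regions. These 12 are not a subset of the 18. They include regions whose D0 epidermis peak the setting removed, such as the Lhx2 inner start (percentile 37.5 of the D0 epidermis list).

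The follicle regions were of medium to low rank in their own list. Their median percentile by −log10 p was 37.0 and ranged from 5.79 at a distal Foxc1 region to 89.7 at an Nfatc1 region 11398 bp from the gene. The 16 regions that the follicle list shared with the D0 epidermis list had a median percentile of 65.6. In the follicle list as a whole the 34 regions of these genes had a median percentile of 55.5 and a median fold enrichment of 7.13, beside 8.12 over all its peaks.

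**Figure D2:**
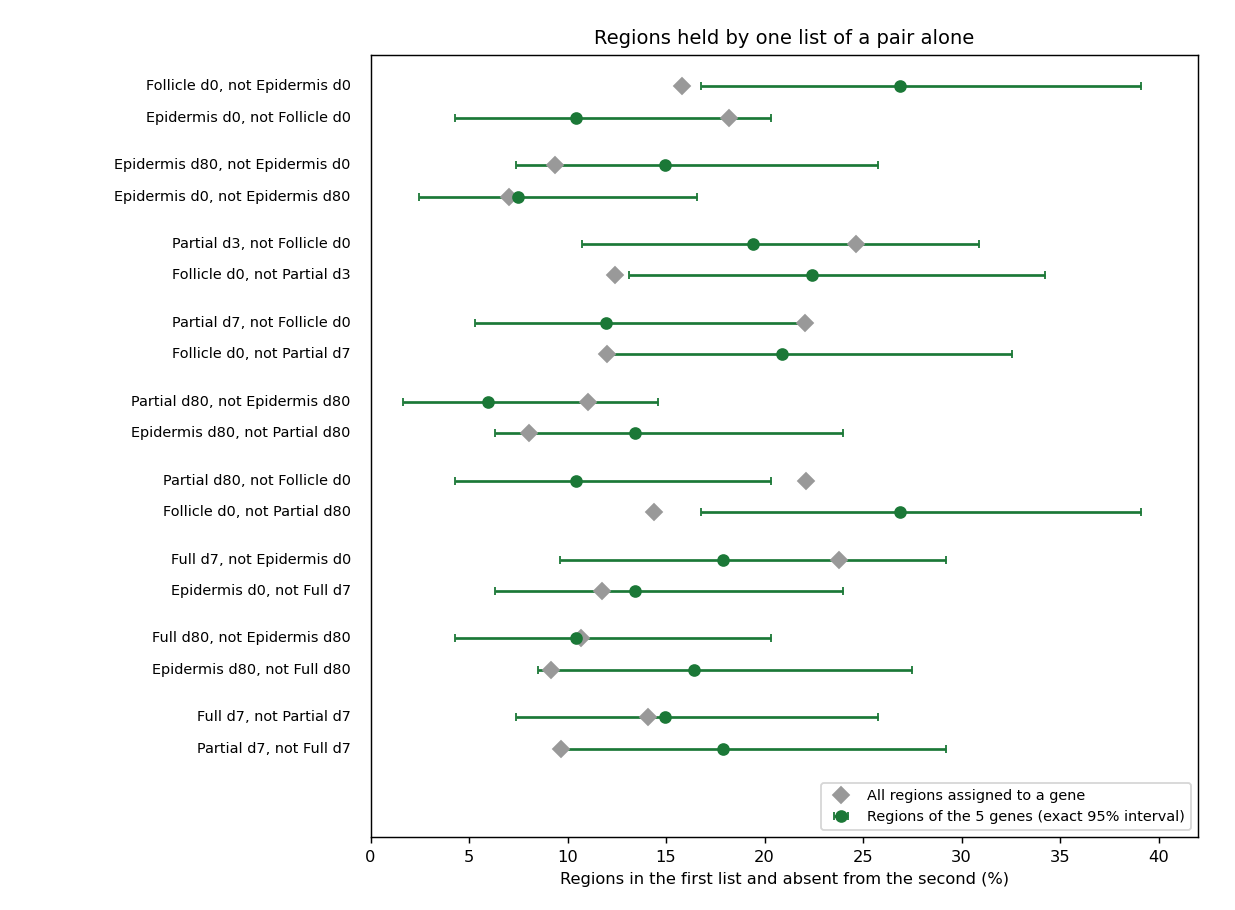
Share of regions held by the first list of a pair and absent from the second, in percent of all regions considered, for the 67 regions of the 5 genes (circles, with exact 95% intervals for counting error) and for all 52791 regions given to a gene (diamonds). For follicle against day 0 epidermis the circle stands at 26.9% and the diamond at 15.8%, and in the other direction at 10.4% and 18.2%.

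At Lhx2 (gene ID 16870, chromosome 2, 38339271 to 38369737) the follicle list held 6 regions, the partial-wound lists 5, 5 and 2 (days 3, 7 and 80), the full-wound lists 0 and 3 (days 7 and 80), and the epidermal lists 3 and 3 (days 0 and 80). A core of 2 regions, the inner start and a region near the upper end of the gene (38368601 to 38369103), made up the day 80 partial-thickness set and was in every list but the full-wound list of day 7. The follicle list added 4 regions that neither epidermal list had. Of these, a region inside the gene (38359779 to 38360323) was in the follicle list alone of the 8, with a fold of 7.08. The others were each in 1 or both of the early partial-wound lists and nowhere else. One inside the gene (38347531 to 38348433) was also at day 3, one 8590 bp above the gene (38378327 to 38379660) also at day 7, and one 7342 bp above it (38377079 to 38377588) at both days. Folds at this last region were 4.67 in the follicle list, 4.56 at day 3 and 5.43 at day 7, at percentiles 45.9, 25.5 and 24.1 of their lists. The full-wound list of day 7 was the only one of the 8 without a region at this gene. It is the longest list, but its weakest peak had a −log10 p of 32.24. At the inner start the −log10 p was 84.9 in the follicle list and 62.1 and 78.9 in the partial-wound lists of days 3 and 7. It was 29.1 and 29.4 in the day 80 partial-wound and full-wound lists, and 24.2 and 19.1 in the D0 and D80 epidermis lists. With a common lowest −log10 p of 40.19 the day 80 wound lists and the epidermal lists held no Lhx2 region. The part of the threshold in the empty day 7 full-wound list was not tested.

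At Nfatc1 (gene ID 18018, chromosome 18, 80606205 to 80713071) the follicle list held 10 regions, the partial-wound lists 8, 9 and 6 at days 3, 7 and 80, the full-wound lists 6 and 10 at days 7 and 80, and the epidermal lists 7 and 7 at days 0 and 80. A set of 3 regions was in all 8 lists, at 80582907 to 80584267 below the gene and at 80607981 to 80610067 and 80654140 to 80657397 inside it. At 80607981 to 80610067 the summits of the lists lay up to 590 bp apart, so that the lists need not share the same open site there. Of the 18 regions in the follicle list and not the epidermal one, the highest in rank stood 11398 bp below the gene (80593462 to 80594807). Its fold was 11.4 in the follicle list, 7.89 at day 3 and 11.6 at day 7 of the partial-thickness wound, at percentiles 89.7, 12.4 and 62.1. It was in no other list. A neighbour 4845 bp from the gene (80600372 to 80601360) was in the follicle list, at day 7 of the partial-thickness wound and at day 80 of the full-thickness wound. The remaining 3 follicle regions, at 80560110 to 80560716, 80617191 to 80618035 and 80631210 to 80632134, were in the follicle list alone. A large region across the upper end of the gene (80712374 to 80716193) was in 6 lists and absent from both day 7 lists. It joins separate summits up to 2712 bp apart, so that lists holding it need not share the same open site.

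Some Nfatc1 regions were in wound lists alone. One 5107 bp above the gene (80718178 to 80718890) was in the partial-wound lists of days 3 and 7 and no other. One inside the gene (80682635 to 80683440) was at day 80 of the partial-thickness wound and at days 7 and 80 of the full-thickness wound, and in no unwounded list. The percentiles of this second region were 0.105 at day 80 of the partial-thickness wound and 7.10 and 36.4 at days 7 and 80 of the full-thickness wound.

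At Foxc1 (gene ID 17300, chromosome 13, 31806646 to 31810635) all regions but the start lay below the gene. The follicle list held 3 regions, the partial-wound lists 4, 2 and 0 at days 3, 7 and 80, the full-wound lists 1 and 0 at days 7 and 80, and the epidermal lists 1 and 0 at days 0 and 80. The region 8268 bp from the gene (31797310 to 31798378) was in the follicle list and at days 3 and 7 of the partial-thickness wound alone, with folds of 6.24, 5.15 and 5.83. The region 21207 bp away (31784654 to 31785439) was in the follicle list alone. The regions 13546 and 37590 bp away (31792438 to 31793100 and 31768486 to 31769056) were at day 3 of the partial-thickness wound alone, at percentiles 1.79 and 0.908 of that list. No list of day 80 held any Foxc1 region.

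At Tbx1 (gene ID 21380, chromosome 16, 18580979 to 18590671) each of the 4 regions was in a single list. The follicle list held the inner start and a region 2564 bp below the gene (18577687 to 18578415, fold 6.29, percentile 25.4). The full-wound list of day 7 held a region 6326 bp below it (18574295 to 18574653) and the D80 epidermis list a region inside it (18581763 to 18582880). No partial-wound list held a Tbx1 region.

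At Foxp1 (gene ID 108655, chromosome 6, 98925342 to 99522746) the lists were more alike. The follicle list held 13 regions, the partial-wound lists 15, 12 and 15 at days 3, 7 and 80, the full-wound lists 18 and 11 at days 7 and 80, and the epidermal lists 12 and 17 at days 0 and 80. In all 8 lists were 6 regions, all inside the gene, among them 99084610 to 99085728 (folds from 9.91 to 15.7) and 99466082 to 99467027 (8.36 to 14.9). At 1 of these 6 (98947554 to 98950376) the summits of the strongest peaks lay up to 2129 bp apart, that of the follicle list standing apart from the other 7. The follicle list had 2 peaks in this region, and the weaker was not compared. At another (99252755 to 99253964) the summits lay up to 601 bp apart. The lists holding these regions need not share the same open site. A region 23396 bp below the gene (98900984 to 98901946) was in every list but the follicle list. Its fold after the partial-thickness wound was 15.5, 18.8 and 14.4 (days 3, 7 and 80), after the full-thickness wound 15.3 and 8.51 (days 7 and 80), and in unwounded epidermis 10.7 and 10.6 (days 0 and 80). The 18.8 is the highest fold of any peak at the 5 genes. A region inside the gene (99392430 to 99393065) was likewise in every list but the follicle list. In the other direction, regions at 98972062 to 98973067 (fold 9.86, percentile 64.7) and 99501298 to 99501809 were in the follicle list alone. A region at 98954270 to 98954992 was in the follicle list and in the 3 early wound lists, with folds of 5.85 in the follicle list, 6.20 and 6.28 at days 3 and 7 of the partial-thickness wound and 6.44 at day 7 of the full-thickness wound. Of its 29 regions, 27 lay within the gene or across its end.

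**Figure D3:**
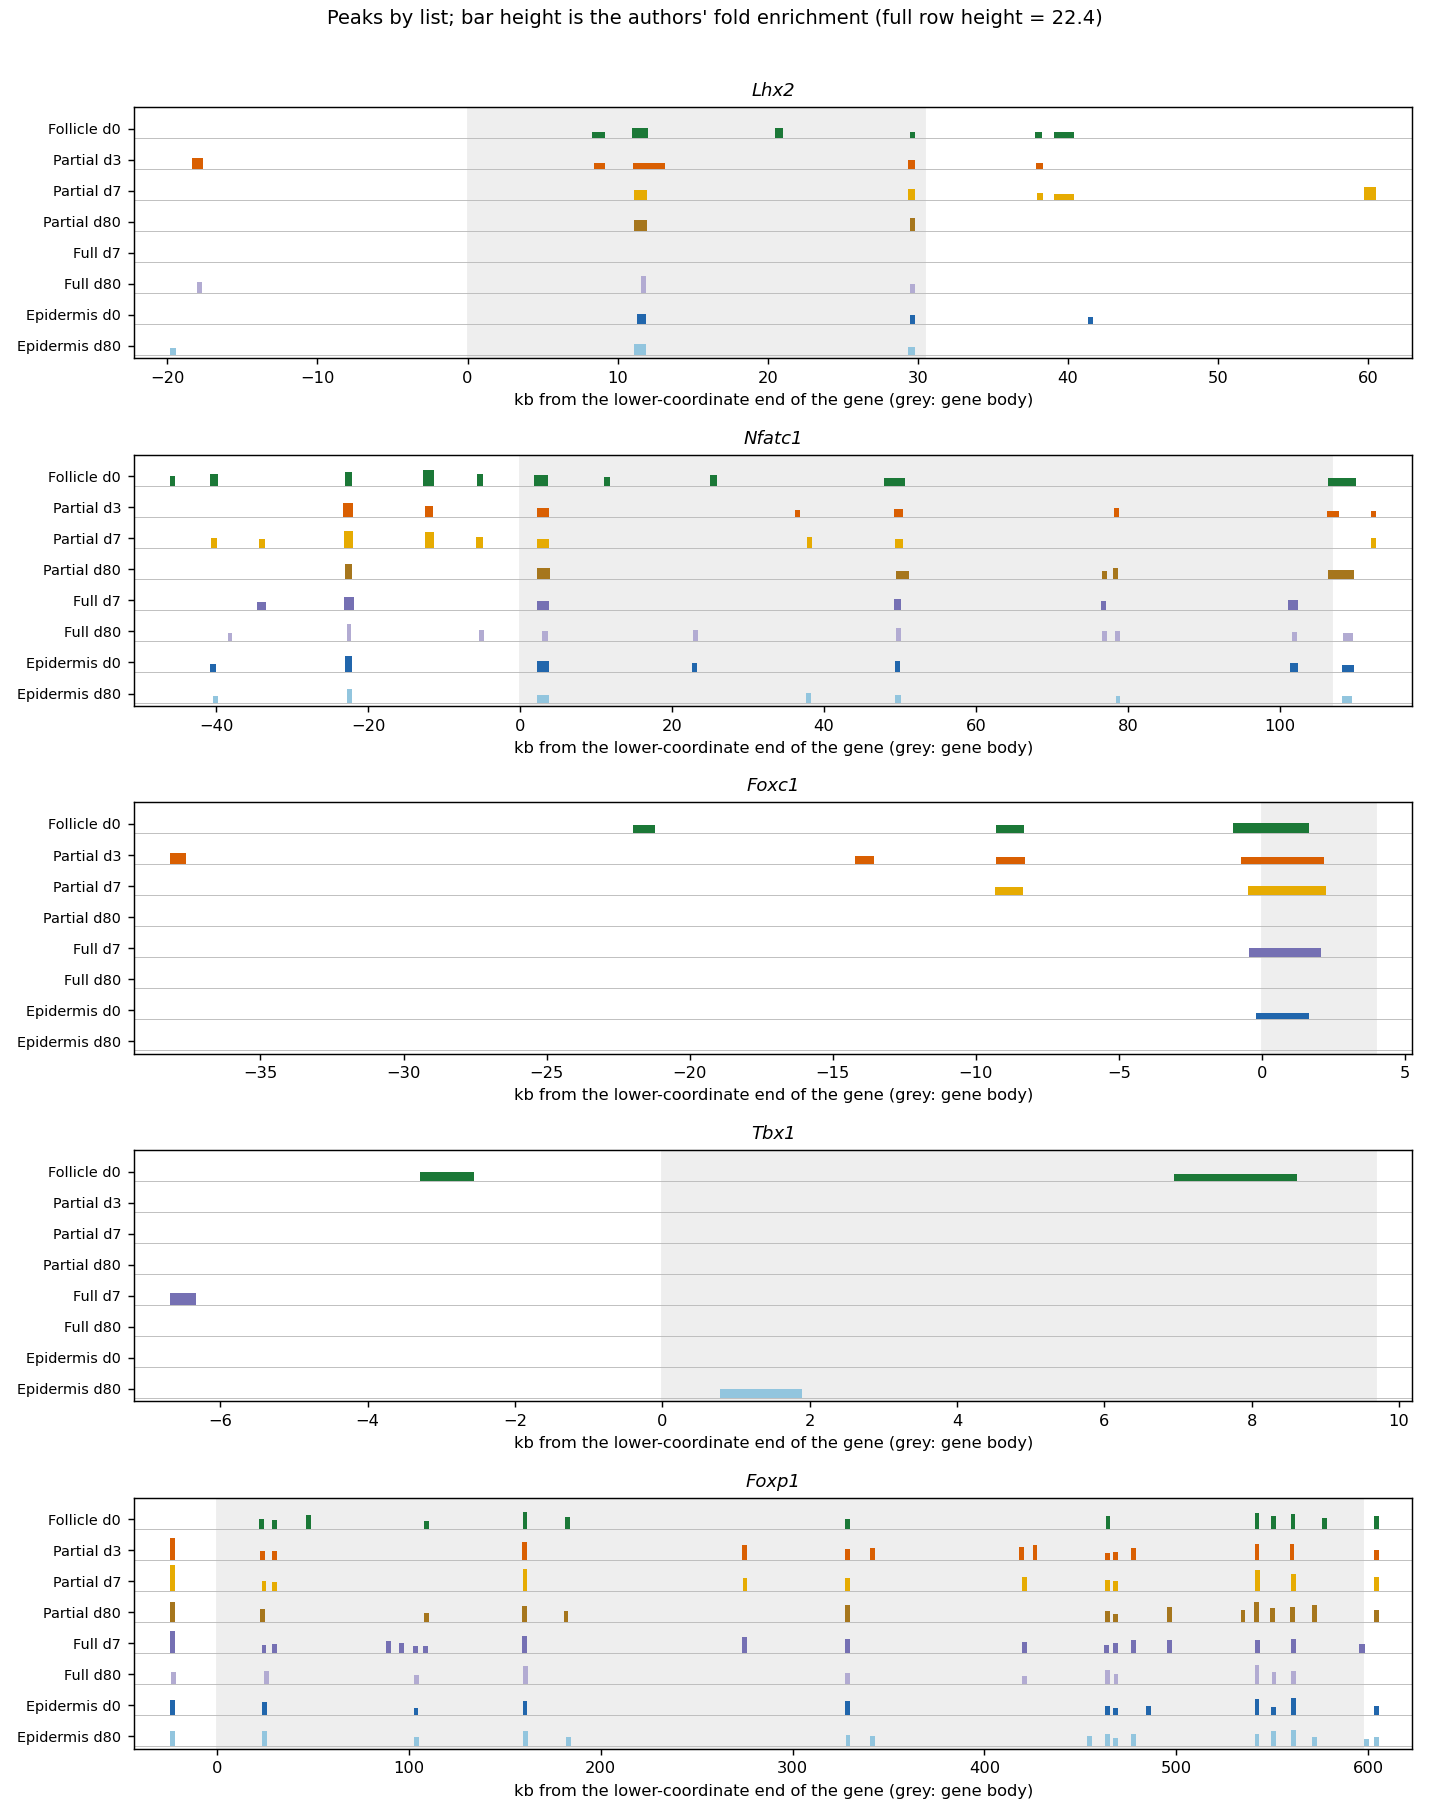
Peaks along the 5 genes, with the distance from the lower-coordinate end of the gene in kb on the x axis, 1 row for each list, grey for the gene body and bar height for the authors' fold enrichment of the strongest peak of a region. Narrow peaks are drawn at a minimum width. The row of the full-thickness wound at day 7 is empty at Lhx2, all 3 rows of day 80 are empty at Foxc1, and the 3 partial-thickness rows are empty at Tbx1.

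The early partial-wound lists show which follicle regions the progeny of follicle stem cells held after wounding. Set against the follicle list itself, the day 3 list had 13 regions that the follicle list lacked (19.4%, beside 24.7% of all regions) and the follicle list 15 that the day 3 list lacked (22.4%, beside 12.4%). At day 7 the counts were 8 (11.9%, beside 22%) and 14 (20.9%, beside 12%). The follicle regions missing at day 3 were 5 at Nfatc1, 5 at Foxp1, 2 at Lhx2, 2 at Tbx1 and 1 at Foxc1. Their −log10 p in the follicle list ranged from 18.9 to 79.7, while the weakest day 3 peak had 39.70. Some of them thus had a lower −log10 p in the follicle list than the weakest day 3 peak. The part of this threshold in their absence was not tested. With lists of equal length the day 3 list had 7 regions and the day 7 list 4 that the follicle list lacked.

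Of the 18 follicle regions absent from the D0 epidermis list, 5 were at day 3 (27.8%, interval 9.69 to 53.5), 6 at day 7 (33.3%, 13.3 to 59.0) and 2 at day 80 (11.1%, 1.38 to 34.7) of the partial-thickness wound. The same shares over all genes were 38.4%, 37.1% and 22.7%. In all, 7 of the 18 were in at least 1 early partial-wound list: 3 at Lhx2, 2 at Nfatc1, 1 at Foxc1 and 1 at Foxp1. The full-wound lists held 2 at day 7 and 1 at day 80, beside 27.4% and 19.6% over all genes, and the D80 epidermis list held 1, beside 19.4%. The interval of each of these shares holds the share over all genes (up to 34.7% for 2 of 18 and up to 27.3% for 1 of 18). The 2 held at day 80 of the partial-thickness wound were Foxp1 regions (99033021 to 99033594 and 99106077 to 99107798), at percentiles 10.0 and 0.499 of that list. With lists of equal length 2 of 18 were at day 3 and 0 at day 80, beside 31.7% and 20.1% over all genes. With 1 common lowest −log10 p of 40.19 in all lists, 15 regions were in the follicle list and not the D0 epidermis list. Of these 15, 9 (60%) were at day 3 and 10 (66.7%) at day 7, beside 72.6% and 74.1% over all genes. The 15 are not a subset of the 18. They include regions with a D0 epidermis peak that this cut removed, such as the start regions of Lhx2 and Foxc1.

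**Figure D4:**
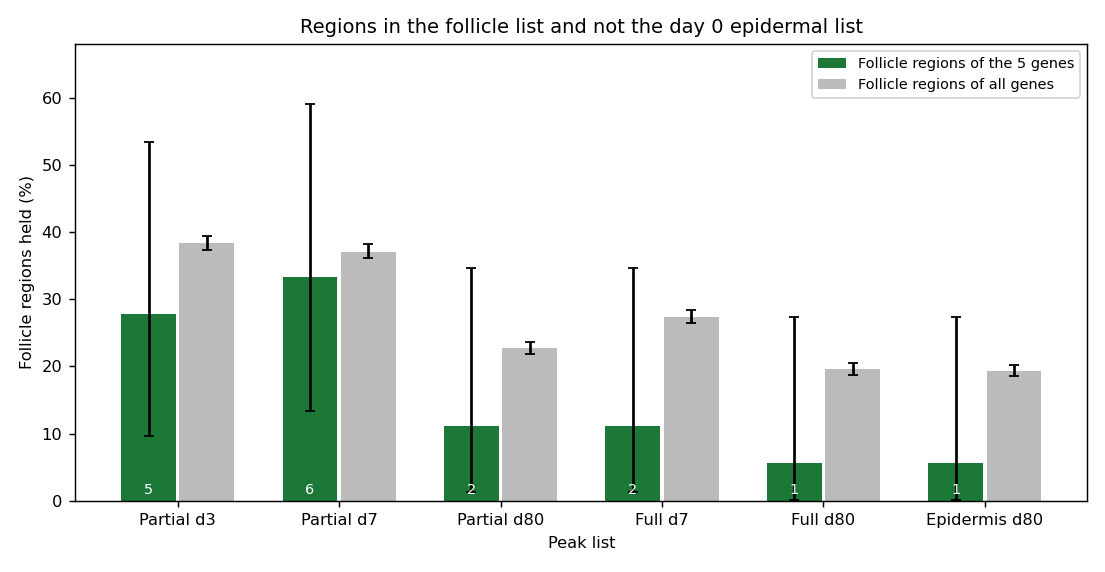
Share, in percent, of the regions in the follicle list and not the D0 epidermis list that each later list held, for the 18 such regions of the 5 genes (green, with their number) and the 8335 of all genes (grey), with exact 95% intervals for counting error. The green bars stand at 27.8% and 33.3% at days 3 and 7 of the partial-thickness wound and at 11.1% at day 80.

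Of the 7 regions that only the epidermal member of the unwounded pair held, the full-wound lists had more than the partial-wound lists, with no test of the difference. The partial-wound lists held 2, 2 and 2 of them at days 3, 7 and 80, beside 46.0%, 53.0% and 72.4% of such regions over all genes. The full-wound lists held 4 and 5 at days 7 and 80, beside 54.6% and 71.1%, and the D80 epidermis list held 3, beside 71.6%.

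The day 80 partial-wound list was set against unwounded epidermis and against the follicle list. Beside the D80 epidermis list it had 4 regions of its own (5.97%, interval 1.65 to 14.6, beside 11% of all regions). It lacked 9 (13.4%, interval 6.33 to 24.0, beside 8.04%). Each interval holds the share over all regions. Of the 4, 3 were at Foxp1 and 1 at Nfatc1. When a peak had to cover 50% of its region, the epidermal list held 15 regions in place of 28, and this count was 13. Against the follicle list, the source of these cells, it had 7 regions that the follicle list lacked (10.4%, beside 22.1%) and lacked 18 (26.9%, beside 14.4%), with 6 at Nfatc1, 4 at Lhx2, 3 at Foxc1, 3 at Foxp1 and 2 at Tbx1. With only peaks in the upper 50% of each list by score, the 7 became 2.

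After the full-thickness wound most of the regions that the day 7 list had beyond the D0 epidermis list were at Foxp1. The day 7 list had 12 regions absent from the D0 epidermis list (17.9%, interval 9.61 to 29.2, beside 23.8% of all regions). Of these, 9 were at Foxp1, 2 at Nfatc1 and 1 at Tbx1. Foxp1 has 29 of the 67 regions, so a large part of any such count can fall there. It lacked 9 epidermal regions (13.4%, beside 11.7%), 3 each at Lhx2, Nfatc1 and Foxp1. Set against the day 7 partial-wound list it had 10 regions of its own (14.9%, beside 14.1%), 7 of them at Foxp1, and lacked 12 (17.9%, beside 9.66%), 5 of them at Lhx2 and 5 at Nfatc1. At day 80 the full-wound list had 7 regions absent from the D80 epidermis list (10.4%, beside 10.7%), 5 of them at Nfatc1, and lacked 11 (16.4%, beside 9.14%), 7 of them at Foxp1. With only peaks in the upper 50% of each list by score, the counts of 12, 10 and 7 regions became 2, 3 and 3. The wounds differ in genotype as well as in depth and cell of origin, and these cannot be told apart. The full-wound and unwounded epidermal lists likewise differ in genotype (Sox9-CreER and Krt19-CreER) as well as in wounding, and these cannot be told apart either.

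The 2 unwounded epidermal lists show how far lists of 1 kind of cell differ at these genes. The day 80 list had 10 regions absent from the day 0 list (14.9%, beside 9.34%), 6 of them at Foxp1, and lacked 5 (7.46%, beside 7.02%). With only peaks in the upper 50% of each list by score, the day 80 list had 2 such regions. When a peak had to cover 50% of its region it had 6, and with 1 common lowest −log10 p of 40.19 in all lists it held 0 regions of the 5 genes.

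**Figure D5:**
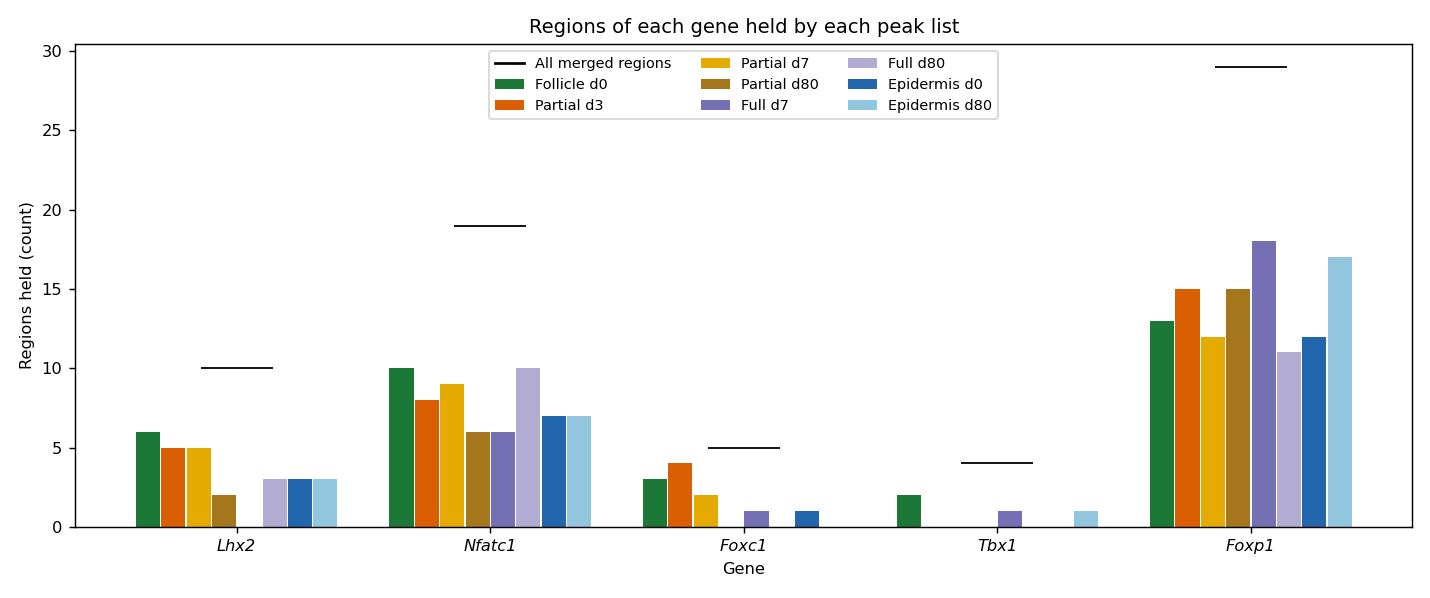
Number of regions of each gene (y axis) held by each of the 8 peak lists (bars), with the number of merged regions of the gene as a black line. Lhx2 has 6 regions in the follicle list and 0 in the full-wound list of day 7, Foxc1 has 3 in the follicle list and 0 in each list of day 80, and Foxp1 ranges from 11 to 18.

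Few regions of these genes were common to all lists. All 8 lists held 9 of the 67 (13.4%, interval 6.33 to 24.0), beside 24.4% of all regions, and 24 (35.8%, 24.5 to 48.5) were in 1 list, beside 24.9%. The follicle list was the single list for 9 of these 24, or 13.4% of the 67 beside 7.44% of all regions. They were 3 at Nfatc1, 2 at Tbx1, 2 at Foxp1, 1 at Lhx2 and 1 at Foxc1. A further 5 regions (7.46%, beside 2.04%) were in the follicle list and in an early partial-wound list and nowhere else, 3 at Lhx2, 1 at Nfatc1 and 1 at Foxc1. The share lying inside or touching the gene was 67.2%, beside 69.2%.

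Just inside the 50 kb limit lay an Nfatc1 region at 45489 bp, in the follicle list alone. Just outside it lay a region 50752 bp from Nfatc1 (chromosome 18, 80554438 to 80555453), in the follicle list, both early partial-wound lists and the full-wound list of day 7, and a region 55056 bp from Foxc1 (chromosome 13, 31750725 to 31751590), in the day 3 partial-wound list, the day 80 full-wound list and both epidermal lists.

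Other genes of the bulge circuit leaned the same way between the unwounded lists. Of 18 such genes, 13 had more regions in the follicle list than in the D0 epidermis list, 1 had fewer and 4 had equal numbers, with a median difference of 1 region. Over all 14757 genes with a region, 3235 had more, 3836 fewer and 7686 equal numbers, with a median of 0. The 18 include the follicle markers Krt15, Cd34, Lgr5 and Sox9. The lean was not particular to bulge genes. More regions in the follicle list were also found for 4 of 4 epidermal, 3 of 4 fibroblast and 2 of 4 melanocyte markers. For endothelium 1 marker had more and 1 fewer, for immune cells 0 and 1, and for the dermal papilla 1 and 2. Runx1, a factor of hair follicle stem cell activation, had 12 regions in the follicle list and 5 in the D0 epidermis list, and Hopx, a homeodomain protein of bulge cells, 9 and 4. Tcf7l1, a Wnt effector that represses its targets in the bulge, had 10 and 7. The exception with fewer was Prlr, the prolactin receptor gene, with 11 and 12. Prlr had 3 and 4 regions at days 3 and 7 and 10 at day 80 of the partial-thickness wound, and 2 and 11 at days 7 and 80 of the full-thickness wound. Fgf18, a growth factor that keeps bulge cells at rest, had 1 region in every list but the day 80 partial-wound list. Cdk4, a cell cycle kinase that Nfatc1 represses, had 1 region in all 8 lists. Lgr5, a marker of follicle stem cells, had 7 regions in the follicle list, 7, 7 and 0 at days 3, 7 and 80 of the partial-thickness wound, and 1 and 0 in the epidermal lists. Earlier results of these data were known when this list of genes was drawn up, so its count is not independent evidence of a direction.

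Relatives of the 5 factors in the same protein families were mostly equal. Of 12 relatives, 3 had more regions in the follicle list than in the D0 epidermis list, 2 fewer and 7 equal numbers. Foxp4, a forkhead relative of Foxp1, had 8 and 5, and Nfatc2, an NFAT relative, 4 and 4. Foxc2, the nearest relative of Foxc1, had 1 and 0.

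By the share of a gene's regions in each list, the genes most like each factor were taken among 3448 other genes with at least 5 regions (3449 for Tbx1, which has fewer), by city-block distance over the 8 lists, where 0 is the same pattern. They were Serpinb5 (0.567), Nrep (0.567) and Marchf3 (0.600) for Lhx2, Rarb (0.378), Lrig3 (0.417) and Ext1 (0.439) for Nfatc1, Piezo2 (0.475), Dclk1 (0.543) and Mecom (0.600) for Foxc1, Itga9 (0.800), Tcf7 (0.833) and Sncaip (0.889) for Tbx1, and Usp6nl (0.282), Mical2 (0.308) and Zcchc2 (0.317) for Foxp1. Piezo2, which encodes a mechanically gated channel, had 5 regions in the follicle list, 5, 2 and 0 after the partial-thickness wound (days 3, 7 and 80), 1 and 0 after the full-thickness wound (days 7 and 80), and 2 and 0 in unwounded epidermis (days 0 and 80). The likeness is a description of these lists and says nothing of shared control.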

How the data were processed

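The 8 deposited peak lists (narrowPeak layout, mm10, 1 per group) were the input. The tools named, per the submitters' processing notes, with no role or order, are MACS2 2.1.1.20160309, bedtools 2.29.2, Bowtie and Picard. Whether the authors pooled reads or merged calls of a group is not stated in the labels. For each peak the authors deposited a score, a fold enrichment ratio over local background, a −log10 p and the offset of its summit. These ranked and filtered peaks of the same list only, except in the setting with a common lowest −log10 p, which applied 1 cut to all lists. From the numbering of the deposited peaks, between 32.8% and 82.5% of the calls had been kept.

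Overlapping or touching peaks were merged, a list held a region when it had a peak in it, and each region went to the nearest of 21900 protein-coding genes in the RefSeq table (GRCm38.p6), at distance 0 inside a gene. In a tie (1917 regions, 0 of them at the 5 genes) the gene with the greater overlap was taken. Positions relative to exons were not analysed here. The code was tested on simulated intervals. Shares carry exact Clopper-Pearson 95% intervals. There were 9 pairs of lists, each read in both directions, and 7 alternative settings. Named genes were the 5 members, their relatives, the bulge circuit genes and the 3 genes nearest in pattern to each member. The members and lists were chosen with earlier results of these data known. Python 3.11.15, numpy 2.4.6, pandas 2.3.3, scipy 1.17.1 and matplotlib 3.10.9 were used.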

Additional observations from a re-analysis of the deposited data

Results flagged for a closer look

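Between day 7 and day 80 the number of regions moved in opposite directions in the 2 wounds at 3 of the 5 genes. At Lhx2 it was 3 lower at day 80 than at day 7 after the partial-thickness wound (2 regions at day 80 and 5 at day 7) and 3 higher after the full-thickness wound (3 and 0), a difference between the changes of -6. At Nfatc1 the counts were 6 and 9 after the partial-thickness wound and 10 and 6 after the full-thickness wound, a difference of -7. At Foxp1 they were 15 and 12 after the partial-thickness wound and 11 and 18 after the full-thickness wound, a difference of 10. With 1 list per group these differences were not tested. Summed over all genes, regions were fewer at the later time in either wound. The sum went from 29985 to 28762 for the partial-thickness wound and from 32324 to 28010 for the full-thickness wound. How many of all genes moved in opposite directions was not counted, so it is not known whether changes of this size are unusual. The day 80 full-wound list has narrower peaks than the day 7 list (median 460 bp against 921 bp) and a lower threshold (−log10 p of 7.98 against 32.24). Of the 7 alternative settings, 6 kept opposite directions at Lhx2, 5 at Foxp1 and 3 at Nfatc1. When a peak had to cover 50% of its region, Nfatc1 had 2 regions at day 80 and 5 at day 7 of the full-thickness wound, so that both wounds had fewer at day 80, while Lhx2 (2 and 0) and Foxp1 (2 and 17) kept the direction of their full-wound change. With a common lowest −log10 p of 40.19, the day 80 full-wound list held 0 regions at all 3 genes and none of the 3 moved in opposite directions. With the upper 50% of each list by score, Nfatc1 had 2 and 2 after the full-thickness wound, and Foxp1 had fewer at day 80 after both wounds (6 and 7 after the partial-thickness, 5 and 8 after the full-thickness wound). Within 10 kb of the gene, Nfatc1 had 5 and 5 after the partial-thickness wound.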

How the results depend on the processing

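All counts and shares below are for the regions of the 5 genes, and the cause of a change was not tested unless the setting itself removes peaks. Follicle regions (in the follicle list and not the D0 epidermis list) were drawn anew in each setting. They need not be the same regions as in the main result. Taking at most 100 kb from the gene, or 200 bp around each summit, left each of the 23 values within 1.5 times of the reported count or inside the interval of the reported share, with 73 and 77 regions assigned. At most 10 kb from the gene left 22 so, and the regions of the day 7 partial-wound list absent from the follicle list then numbered 5. Lists of equal length (29365 peaks) left 19 so. The day 3 partial-wound list then held 21 regions, 7 and 4 regions of the day 3 and day 7 partial-wound lists were absent from the follicle list, and the day 80 partial-wound list held 0% of the follicle regions. When a peak had to cover 50% of a region, the day 80 full-wound list held 6 regions and the D80 epidermis list 15. Regions of the D80 epidermis list absent from the day 0 list numbered 6, and those of the day 80 partial-thickness and full-wound lists absent from the D80 epidermis list 13 and 3. The day 80 full-thickness and epidermal lists then held 0% of the follicle regions.

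With peaks in the upper 50% of each list alone, the lists held 20 (follicle), 11, 13 and 8 (partial-thickness days 3, 7 and 80), 10 and 8 (full-thickness days 7 and 80) and 10 and 8 regions (epidermal days 0 and 80). Absent from the follicle list were then 4, 2 and 2 regions of the partial-wound lists of days 3, 7 and 80. Regions absent from the D0 epidermis list were 2 in the D80 epidermis list and 2 in the day 7 full-wound list. The day 80 full-wound list had 3 absent from the D80 epidermis list and the day 7 full-wound list 3 absent from the day 7 partial-wound list. The day 3 partial-wound list held 8.33% and the day 7 full-wound list 0% of the follicle regions. With a common lowest −log10 p of 40.19 the follicle list held 20 regions, the day 80 partial-wound list 11, the day 80 full-wound list 0, and the epidermal lists 5 at day 0 and 0 at day 80. Partial-thickness regions absent from the follicle list were 13 at day 7 and 3 at day 80, and 11 of day 80 were absent from the D80 epidermis list. The day 80 epidermal list had 0 regions absent from the day 0 list, the day 80 full-wound list 0 absent from the D80 epidermis list, and the day 7 full-wound list 6 absent from the day 7 partial-wound list. Shares of the follicle regions were 60% and 66.7% at days 3 and 7 of the partial-thickness wound and 0% in the day 80 full-thickness and epidermal lists, beside 72.6%, 74.1%, 2.26% and 1.72% over all genes. Regions in the follicle list and absent from the D0 epidermis list, 18 as reported, numbered from 12 to 24 over the 7 settings.

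No paired analysis was possible because the files hold 1 list per group and no value per sample, and leaving out a replicate was not run for the same reason.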
